A study of Mus musculus with 4514 samples.

Results

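Hepatocytes of adult mouse liver labelled as Nr2f2 knockouts (Nr2f2-KO, age label P60+14d) were compared with cells labelled WT at the same age. They were chosen by their labels, as 13.1% of the 1226 Smart-seq3 cells, in a series of 4514 samples on hepatocyte maturation. Smart-seq3 reads along the whole transcript and gives every cell its own library. Each gene was also read in cells labelled Usf1-KO at P60+14d, which share the WT cells as their only control. Nr2f2-KO cells labelled P12+40d, with their own WT cells, served as a second stage of the same knockout. The groups go by their labels, and in cells labelled Usf1-KO the Usf1 gene was not lower, with a mean of 115.4 CPM in Usf1-KO and 68.2 CPM in WT at P60+14d. Each Usf1-KO run mean (94.3 to 136.7 CPM) lay above each WT run mean (39.5 to 84.2 CPM). All these groups, WT included, carry the genotype label Rosa-Cas9, a mouse line with the Cas9 nuclease at the Rosa locus, and came from liver. The ages are read here as postnatal day 60 plus 14 days and postnatal day 12 plus 40 days. The guides, how they were delivered, what the WT cells received, the animals behind the cells and their sex were not stated in the sources. A group was therefore taken as 1 pool of cells, and at P60+14d levels are compared with no test.

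Nr2f2, also called COUP-TFII, is an orphan nuclear receptor that binds direct repeats of AGGTCA as a dimer and is known mostly as a repressor of transcription. The liver also carries out the acute phase response, in which cytokines such as interleukin-6 and interleukin-1 reach hepatocytes during infection or injury. Through STAT3, NF-kappa-B and C/EBP factors, hepatocytes then turn to the synthesis of defence proteins, among them the serum amyloid A proteins, while many metabolic enzymes are made less. Along the liver lobule, hepatocytes near the portal vein (periportal) and near the central vein (pericentral) hold different enzymes, so a group's average level depends on which cells were picked.

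The 3 pools at P60+14d were of similar depth. The total count was 126776724 in Nr2f2-KO cells, 124425503 in Usf1-KO cells and 137580291 in WT cells, and single cells held between 254635 and 1423016 counts. The median cell had 8447 genes with a count in Nr2f2-KO, 8584 in Usf1-KO and 8927 in WT. The sum of 15 hepatocyte markers such as Alb and Apoa1 averaged 161999 counts per 1000000 counts (CPM) per cell in Nr2f2-KO, 195716 CPM in Usf1-KO and 190823 CPM in WT, and the lowest cell had 77577 CPM in Nr2f2-KO, 121361 CPM in Usf1-KO and 78988 CPM in WT. No pair of cells had identical counts. Intervals below take cells or counts as independent and leave out the spread between animals and between sets of cells. Those on summed counts are too narrow if the counts are amplified reads, which are not independent molecules.

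Cells of 1 group were not alike along their label numbers. A segmentation on 7288 genes, none of them on a gene list used here or past 2-fold in either knockout at P60+14d, cut each group into runs of consecutive numbers. Nr2f2-KO fell into runs 1 to 4 with 34, 73, 32 and 22 cells, in the order of the label numbers. Usf1-KO fell into runs 1 to 3 with 50, 70 and 36 cells, and WT into runs 1 to 3 with 44, 95 and 45 cells. The root mean square log2 distance to the nearest WT run was 0.400, 0.571, 0.633 and 0.455 for the Nr2f2-KO runs in that order. It was 0.415 to 0.492 between WT runs and 0.418 to 0.443 for the Usf1-KO runs. Nr2f2-KO runs 2 and 3, with 65.2% of the cells of the group, thus lay farther from WT than any WT run lay from its nearest other one. They are called the distant runs here, and the main counts, gene groups and leading genes are given with and without them. The distances were taken in CPM, so genes with a large share of a cell's counts, listed ones included, act on them through the total. What a run stands for (an animal, a plate, a day) is not given in the sources used here, so a difference between runs and a difference caused by the knockout cannot be told apart.

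Nr2f2 itself (chromosome 7, 70351944 to 70366735, minus strand, GRCm38) was lower in Nr2f2-KO cells, and nearly as low in Usf1-KO cells. Its level ranged from 0 to 133.6 CPM with a median of 19.2 CPM in Nr2f2-KO, and from 8.01 to 102.3 CPM with a median of 43.7 CPM in WT. The mean was 22.9 CPM in Nr2f2-KO, 23.7 CPM in Usf1-KO and 45.7 CPM in WT, a log2 difference of -0.97 for Nr2f2-KO over WT. The ranges over cells overlapped almost wholly. A count was found in 98.8% of Nr2f2-KO cells (exact 95% interval 95.6 to 99.9) and in all WT cells. After thinning each cell to 200000 counts the shares were 90.1% in Nr2f2-KO and 100% in WT. By run, the mean was 25.8, 15.5, 24.1 and 41 CPM in Nr2f2-KO, 22.1, 19.8 and 33.4 CPM in Usf1-KO, and 44.8, 44.4 and 49.5 CPM in WT. In the 56 cells outside the distant runs the log2 difference from WT was -0.51. At P12+40d the mean was 31.4 CPM in Nr2f2-KO and 24.7 CPM in WT. Small insertions or deletions made by Cas9 need not lower the amount of mRNA, and the guide site is not given here, so these levels are a weak check of the labels.

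Of 8096 genes tested (mean of at least 5 CPM over both groups and a count in at least 10% of their cells), 2.04% were at least 2-fold higher in Nr2f2-KO and 2.43% at least 2-fold lower. The fold is that of the mean CPM plus 1. The median log2 difference over all tested genes was -0.15, and after scaling with TMM factors it was -0.02. With TMM factors 60.7% of the calls were higher, against 45.6% without them. The higher call nearest the 2-fold line was Spon2 (11.5 CPM in Nr2f2-KO, 5.22 CPM in WT). In Usf1-KO over the same WT cells, 89 of 8063 tested genes were past 2-fold higher (1.1%) and 96 lower (1.19%). With the distant runs left out, 1.43% of the 8096 genes were past 2-fold higher and 1.94% lower in Nr2f2-KO. Among them were 35 of the genes called higher and 62 of those called lower with all cells.

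Saa2 had the largest log2 difference among the named genes, and Lcn2, Saa3 and Saa1 came next. Saa2 (chromosome 7, 46751790 to 46754313, plus strand), an acute phase apolipoprotein that rides on high-density lipoprotein, ranged from 0 to 69236 CPM with a median of 44855 CPM in Nr2f2-KO. In Usf1-KO it ranged from 0 to 4799 CPM with a median of 91.6 CPM, and in WT from 0 to 2284 CPM with a median of 3.12 CPM. The mean was 33557 CPM in Nr2f2-KO, 212.1 CPM in Usf1-KO and 45.6 CPM in WT, a log2 difference of 9.49 for Nr2f2-KO over WT and of 2.19 for Usf1-KO over WT. The summed counts gave 34298 CPM (exact Poisson 95% interval 34266 to 34330) in Nr2f2-KO and 46.6 CPM (45.5 to 47.8) in WT. Groups overlapped at the low end, because Nr2f2-KO cells fell into separate sets.

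All cells of the distant runs had at least 15651 CPM of Saa2. None of the other 56 Nr2f2-KO cells, no Usf1-KO cell and no WT cell reached that level. By run the mean was 34.8, 51416, 51380 and 179.4 CPM in Nr2f2-KO, 136.8, 249.7 and 243.7 CPM in Usf1-KO, and 15.5, 18.6 and 132.2 CPM in WT. Without the distant runs the log2 difference from WT was 0.99, under the 2-fold line. A low level in nearly every cell, was seen in Nr2f2-KO run 4, Usf1-KO runs 2 and 3 and WT run 3. Nr2f2-KO run 1 and WT runs 1 and 2 lay mostly at 0 or a few CPM. A count was found in 85.7% of Nr2f2-KO cells (79.3 to 90.7) and 60.9% of WT cells (53.4 to 67.97), and after thinning in 82.6% of Nr2f2-KO cells and 51.1% of WT cells.

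**Figure D1:**
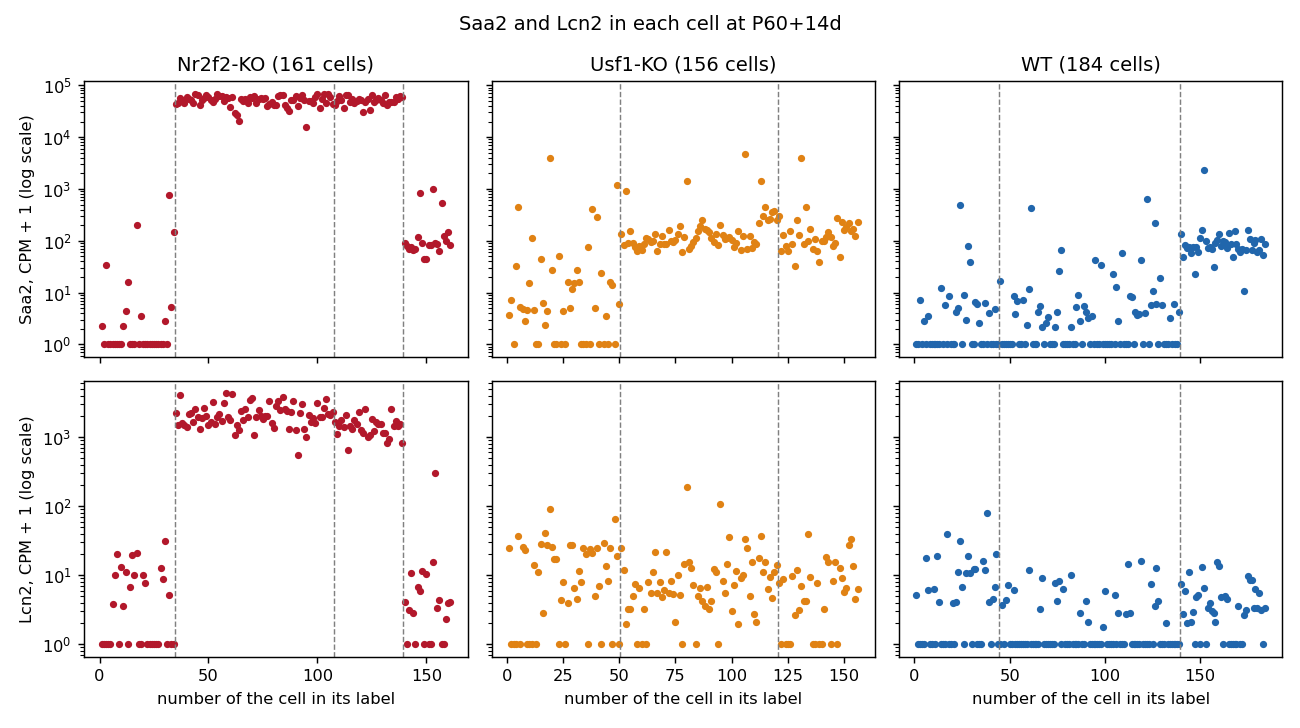
Each point is 1 cell, placed by the number in its label (x axis) and its level of Saa2 (top) or Lcn2 (bottom) in CPM plus 1 on a log axis, with dashed lines at the borders of runs. The cells of Nr2f2-KO runs 2 and 3 all lie at or above 15651 CPM of Saa2, and every other cell of the 3 groups lies at or below 4799 CPM.

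Saa1 (chromosome 7, 46740497 to 46742980, minus strand), the neighbouring and near-identical gene, ranged from 0 to 75241 CPM with a median of 46612 CPM in Nr2f2-KO, and from 0 to 4364 CPM in WT. Its mean was 35232 CPM in Nr2f2-KO, 858 CPM in Usf1-KO and 370 CPM in WT (log2 6.57 for Nr2f2-KO over WT). Of the 50-base windows of Saa1 transcripts, 31.1% also occur in Saa2, so counts of the pair may be split between them. Added together they averaged 68789 CPM in Nr2f2-KO and 416 CPM in WT, a log2 difference of 7.37. Saa3 (chromosome 7, 46711998 to 46715700, minus strand), a member made also outside the liver, ranged from 0 to 12496 CPM with a median of 33.5 CPM in Nr2f2-KO, and from 0 to 520 CPM with a median of 0 in WT. Its mean was 1206 CPM in Nr2f2-KO, 27.4 CPM in Usf1-KO and 6.85 CPM in WT (log2 7.27). Outside the distant runs Saa1 averaged 379 CPM and Saa3 52.99 CPM, so that Saa1 was level with WT (log2 0.03) and Saa3 was past 2-fold higher (log2 2.78). The Saa3 level there came from run 4 (132.2 CPM, median 3.83 CPM), while run 1 averaged 1.74 CPM. A single cell of run 4 held 2802.6 CPM of Saa3, and without it the other cells outside the distant runs averaged 3.0 CPM, below WT (log2 -0.97).

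The promoters of the most raised genes are shown because these genes were high in the same cells. Each is the 300 bases from 250 before to 50 after the start in RefSeq (GRCm38.p6), 5′ to 3′ on the strand of the gene. Capitals mark matches on either strand to TTNNGNAA, a core of sites for C/EBP factors, which drive acute phase genes. The windows are chr7:46751583-46751882 (plus strand) for Saa2, chr7:46742931-46743230 (minus strand) for Saa1, chr7:46715627-46715926 (minus strand) for Saa3 and chr2:32387690-32387989 (minus strand) for Lcn2.
Saa2: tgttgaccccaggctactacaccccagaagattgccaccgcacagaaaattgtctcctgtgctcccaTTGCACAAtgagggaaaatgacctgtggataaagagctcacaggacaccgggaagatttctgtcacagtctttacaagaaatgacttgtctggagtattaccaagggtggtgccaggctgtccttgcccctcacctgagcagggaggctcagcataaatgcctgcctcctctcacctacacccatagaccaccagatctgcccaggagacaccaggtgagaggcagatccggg
Saa1: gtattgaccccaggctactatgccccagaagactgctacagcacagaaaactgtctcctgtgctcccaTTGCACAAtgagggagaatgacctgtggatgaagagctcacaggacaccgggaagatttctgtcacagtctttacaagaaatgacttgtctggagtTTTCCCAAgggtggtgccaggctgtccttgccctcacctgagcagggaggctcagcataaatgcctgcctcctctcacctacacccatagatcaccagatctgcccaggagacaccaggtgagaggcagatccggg
Saa3: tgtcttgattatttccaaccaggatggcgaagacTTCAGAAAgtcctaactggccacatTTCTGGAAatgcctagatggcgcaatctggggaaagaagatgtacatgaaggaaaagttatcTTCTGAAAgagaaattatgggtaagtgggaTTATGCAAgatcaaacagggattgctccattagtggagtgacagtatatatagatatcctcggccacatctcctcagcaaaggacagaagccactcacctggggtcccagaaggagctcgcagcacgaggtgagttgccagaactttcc
Lcn2: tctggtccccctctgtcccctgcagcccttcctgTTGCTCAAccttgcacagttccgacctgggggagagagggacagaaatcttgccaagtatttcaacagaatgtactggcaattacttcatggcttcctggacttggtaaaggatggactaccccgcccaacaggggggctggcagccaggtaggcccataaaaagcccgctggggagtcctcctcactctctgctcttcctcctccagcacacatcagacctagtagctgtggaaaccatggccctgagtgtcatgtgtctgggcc

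Saa2 has 1 match, Saa1 2, Saa3 4 and Lcn2 1, and the first match of Saa1 and Saa2 has the same letters, TTGCACAA. The same motif occurs in 40.7% of 27025 RefSeq promoters of this length, and in 12 of the 18 acute phase genes past 2-fold higher that have a promoter in that table. The kappa-B motif was found in none of these 4 windows, in 1 of the 18 (Steap4) and in 4.35% of all promoters. TTCNNNGAA, the core of STAT sites, was found in 5 of the 18 and in 8.47% of all promoters. A direct repeat bound by Nr2f2, 2 copies of AGGTCA with 1 base between, was found in 0 of the 18 and in 0.0444% of all promoters. A match describes the letters of the window and not a bound site.

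Other acute phase genes followed. Lcn2 (chromosome 2, 32384633 to 32388252, minus strand), which withholds iron carriers from bacteria, ranged from 0 to 4309 CPM with a median of 1406 CPM in Nr2f2-KO and from 0 to 80.02 CPM with a median of 0 in WT. Its mean was 1290 CPM in Nr2f2-KO, 11.95 CPM in Usf1-KO and 3.47 CPM in WT (log2 8.17). Run means were 5.27, 2194, 1467 and 17.3 CPM in Nr2f2-KO and 7.77, 1.54 and 3.36 CPM in WT, so the 2 distant runs stood far above WT. Run 4 was also above the highest WT run, with a median of 2.63 CPM and 1 cell at 304.7 CPM. Orm2, an orosomucoid that binds drugs and modulates immunity, averaged 983 CPM in Nr2f2-KO, 34.1 CPM in Usf1-KO and 26.3 CPM in WT (log2 5.17). It averaged 1495 CPM in the distant runs and 23.5 CPM in the other Nr2f2-KO cells, below WT (log2 -0.15).

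Of 35 acute phase protein genes, 32 were tested, 22 of them were past 2-fold higher and 2 past 2-fold lower in Nr2f2-KO, with a median log2 of 1.60 beside -0.15 over all tested genes. The shares were 68.8% higher and 6.25% lower, beside 2.04% and 2.43% of all tested genes. In Usf1-KO over the same WT cells 4 were past 2-fold higher and 3 lower. Without the distant runs 6 were higher (Saa3, Mt2, Mt1, Apcs, Lcn2 and Cfb), 2 were lower, and the median was 0.30. When the highest of these 56 cells was left out for each gene, Saa3 (log2 -0.97), Lcn2 (0.33) and Cfb (0.92) were no longer past 2-fold higher, while Mt2 (2.60), Mt1 (2.09) and Apcs (1.45) were. Among abundant secreted proteins, haptoglobin Hp, which captures free haemoglobin, averaged 12446 CPM in Nr2f2-KO, 4124 CPM in Usf1-KO and 2652 CPM in WT. Its lowest Nr2f2-KO cell had 2130 CPM and its highest WT cell 6968 CPM, so the groups overlapped. The fibrinogen chain genes, which make the clotting protein, averaged 5315 CPM (Fga), 13355 CPM (Fgb) and 7973 CPM (Fgg) in Nr2f2-KO, against 1662, 4633 and 2412 CPM in WT. Hemopexin Hpx, a carrier of free haem, averaged 6288 CPM in Nr2f2-KO and 2223 CPM in WT. Lbp, which presents bacterial lipopolysaccharide, averaged 235.7 CPM in Nr2f2-KO and 44.8 CPM in WT, and Orm1 5498 CPM in Nr2f2-KO and 1701 CPM in WT.

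The 2 lower members were both hepcidins, the hormones that hold back iron export. Hamp averaged 1057 CPM in Nr2f2-KO, 1161 CPM in Usf1-KO and 2388 CPM in WT (log2 -1.17), and Hamp2 157.5 CPM in Nr2f2-KO, 143.4 CPM in Usf1-KO and 531 CPM in WT (log2 -1.75). The Usf1-KO means of both genes lay near those of Nr2f2-KO. Crp, an acute phase protein with a small response in mice, averaged 333.1 CPM in Nr2f2-KO and 277.9 CPM in WT and was not past 2-fold (log2 0.26). In the Nr2f2-KO cells outside the distant runs it averaged 120 CPM.

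**Figure D2:**
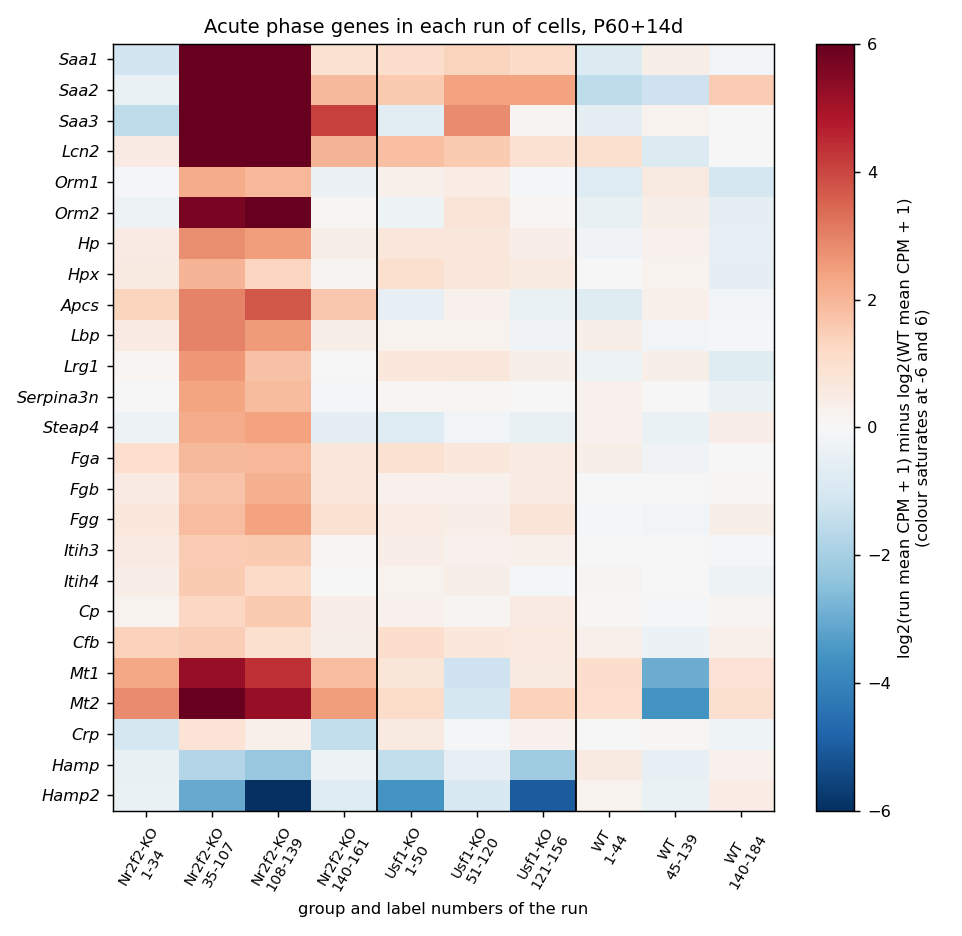
Colour gives the log2 difference of the run's mean CPM plus 1 from the mean over all WT cells, for 25 acute phase genes (rows) in each run of the 3 groups (columns), saturating at -6 and 6. The rows are the 22 list members past 2-fold higher with all Nr2f2-KO cells, the 2 past 2-fold lower, and Crp. The 2 distant Nr2f2-KO runs are red in nearly every row, which follows in part from this choice of rows. Mt1, Mt2 and Apcs are red in all 4 Nr2f2-KO runs, and Hamp and Hamp2 are blue in the distant runs and in Usf1-KO.

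The acute phase list took up a large share of the message. In the distant runs its 35 genes made up 22% of a cell's counts on average (14.9 to 27.2%). The share was 4.34% in the other Nr2f2-KO cells (2.03 to 6.02%), 4.50% in Usf1-KO cells (2.62 to 6.55%) and 3.68% in WT cells (0.657 to 5.58%), so no cell of another set reached the lowest cell of the distant runs. Saa1, Saa2 and Saa3 alone made up 10.7% in the distant runs, 0.0524% in the other Nr2f2-KO cells and 0.0423% in WT. Levels in CPM are shares of a cell's total, so all other genes are divided by a total that holds this larger part. Within the distant runs Saa2 was high in all 3 classes of a zonal score described below. It averaged 51839 CPM in the 60 cells with the most periportal score, 53562 CPM in the 32 middle cells and 44091 CPM in the 13 cells with the most pericentral score. Its lowest cell in these classes had 15651, 39608 and 26496 CPM. In the other Nr2f2-KO cells Saa2 averaged 83.8 to 95.2 CPM over the 3 classes.

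Of 28 genes that carry the cytokine signal, 21 were tested, and 3 were past 2-fold higher (14.3%, beside 2.04% of all tested genes) and 1 lower in Nr2f2-KO, with a median log2 of -0.06. In the cells outside the distant runs 1 was higher and none lower (median -0.12). It was Il6ra, the receptor of interleukin-6, with 57.8, 16.1, 22.4 and 82.8 CPM in the Nr2f2-KO runs and 40.4, 21.1 and 50.3 CPM in the WT runs. Socs3, a feedback inhibitor induced by STAT3, averaged 19.1 CPM in Nr2f2-KO, 7.32 CPM in Usf1-KO and 5.24 CPM in WT (log2 1.69). By run it averaged 3.15, 29.9, 20.5 and 6.05 CPM in Nr2f2-KO and 7.44, 2.69 and 8.49 CPM in WT, so that the other 2 Nr2f2-KO runs lay within the range of WT runs. Cxcl1, a chemokine that draws neutrophils, averaged 170.7 CPM in Nr2f2-KO, 44.9 CPM in Usf1-KO and 23.6 CPM in WT (log2 2.80). Il1r1, the receptor of interleukin-1, averaged 49.6 CPM in Nr2f2-KO and 22.9 CPM in WT (log2 1.08). Lifr, a receptor that shares its signal chain with interleukin-6, averaged 258.8 CPM in Nr2f2-KO and 553 CPM in WT (log2 -1.09). Stat3 averaged 62.6 CPM in Nr2f2-KO and 34.7 CPM in WT, and its partner receptor chain Il6st 65.5 CPM in Nr2f2-KO and 45.1 CPM in WT, both short of 2-fold. The C/EBP genes Cebpb (21.7 CPM in Nr2f2-KO, 23.03 CPM in WT) and Cebpd (4.72 CPM in Nr2f2-KO, 3.43 CPM in WT) were also short of it. The interferon list had 1 of 16 tested genes past 2-fold higher (Ifi47, 6.25%, beside 2.04% of all tested genes) and none lower.

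Markers of immune cells did not move with these genes. The summed level of 13 macrophage markers averaged 2.07 CPM per cell in Nr2f2-KO (0 to 49.02), 15.6 CPM in Usf1-KO (0 to 1626) and 16.2 CPM in WT (0 to 2121). In the distant runs it was 0.737 and 4.84 CPM. The sum of 10 lymphocyte and neutrophil markers was 0.159 CPM in Nr2f2-KO (0 to 15.6), 0.447 CPM in Usf1-KO (0 to 38.9) and 3.65 CPM in WT (0 to 565), and Ptprc, Cd3e, Ms4a1, Nkg7 and Ly6g were at 0 in every Nr2f2-KO cell. The 12 endothelial markers summed to 7.41 CPM in Nr2f2-KO (0 to 52.2), 10.6 CPM in Usf1-KO (0 to 645) and 21.2 CPM in WT (0 to 1391). The 12 stellate markers summed to 4.13 CPM in Nr2f2-KO (0 to 49.5), 5.19 CPM in Usf1-KO (0 to 74.97) and 15.1 CPM in WT (0 to 2026). The 8 erythroid markers, mostly haemoglobin genes, summed to 110 CPM in Nr2f2-KO (0 to 10659), 65.5 CPM in Usf1-KO (0 to 1925) and 68.6 CPM in WT (0 to 2500).

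Of 8 bile duct (cholangiocyte) markers, Spp1 and Sox9 passed the filter and both were past 2-fold higher. Spp1, secreted osteopontin, averaged 50.7 CPM in Nr2f2-KO, 59.7 CPM in Usf1-KO and 4.23 CPM in WT (log2 3.31). Sox9, a factor of duct cells and of hepatocytes beside the portal tract, averaged 7.74 CPM in Nr2f2-KO, 6.24 CPM in Usf1-KO and 2.59 CPM in WT (log2 1.28). Both were high in the distant runs (77.7 CPM of Spp1) and near 0 in the other Nr2f2-KO cells (0.206 CPM of Spp1). The keratins Krt19 and Krt7 and the surface marker Epcam were at 0 in every Nr2f2-KO and WT cell. The whole list summed to 58.6 CPM in Nr2f2-KO (0 to 1323), 66.8 CPM in Usf1-KO (0 to 1840) and 6.87 CPM in WT (0 to 206.6).

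The mean of every Nr2f2-KO run lay above that of every WT run in 1.87% of tested genes and below it in 5.39%. In 9 genes every Nr2f2-KO run lay at least 2-fold above every WT run (0.111% of those tested), and in 3 genes at least 2-fold below (0.0371%). These runs are not replicates, and the counts are descriptions. The 2 metallothioneins, small proteins that bind zinc and copper and are induced by metals, glucocorticoids and the acute phase, were both higher than WT in every run. Mt2 (chromosome 8, 94172664 to 94173568, plus strand) ranged from 0 to 2715 CPM with a median of 533 CPM in Nr2f2-KO and from 0 to 387 CPM with a median of 0 in WT. By run it averaged 121.6, 1095, 653 and 98.8 CPM in Nr2f2-KO, 36.5, 7.21 and 44.2 CPM in Usf1-KO, and 34.2, 0.434 and 32.3 CPM in WT. The log2 difference from WT was 5.27 with all cells and 2.72 without the distant runs. Mt1 (chromosome 8, 94179082 to 94180327, plus strand) ranged from 74.8 to 11356 CPM in Nr2f2-KO and from 0 to 1475 CPM in WT. By run it averaged 755, 5705, 3116 and 542 CPM in Nr2f2-KO, 252.1, 62.8 and 219.2 CPM in Usf1-KO, and 313.2, 18.1 and 271.5 CPM in WT. It was higher in every Nr2f2-KO run than in any WT run, by less than 2-fold for the nearest pair. Both genes were lowest in WT run 2, and without that run the log2 difference was 4.28 for Mt2 and 3.55 for Mt1.

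The promoters of the metallothionein pair are shown because both genes differed from WT in every run. Capitals mark matches on either strand to TGCNCNC, the core of the metal response element. The windows are chr8:94172368-94172667 for Mt2 and chr8:94178839-94179138 for Mt1, both on the plus strand, with the same source and length as above.
Mt2: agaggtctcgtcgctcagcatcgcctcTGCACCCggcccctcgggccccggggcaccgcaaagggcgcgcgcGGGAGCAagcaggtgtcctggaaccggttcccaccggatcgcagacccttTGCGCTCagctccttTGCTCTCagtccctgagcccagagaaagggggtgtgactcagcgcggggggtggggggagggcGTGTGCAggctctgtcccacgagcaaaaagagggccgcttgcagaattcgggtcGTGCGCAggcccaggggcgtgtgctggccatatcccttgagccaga
Mt1: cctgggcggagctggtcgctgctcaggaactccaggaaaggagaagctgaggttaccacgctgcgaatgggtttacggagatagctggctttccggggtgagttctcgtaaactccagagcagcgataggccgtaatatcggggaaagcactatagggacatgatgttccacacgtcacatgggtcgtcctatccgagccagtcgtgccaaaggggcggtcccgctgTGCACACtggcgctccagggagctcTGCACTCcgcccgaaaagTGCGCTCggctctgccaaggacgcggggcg

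Mt2 has 6 matches and Mt1 has 3. The core occurs in 50.4% of all promoters of this length and in 10 of the 18 acute phase genes past 2-fold higher with a promoter in the table.

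Apcs, serum amyloid P component, which binds amyloid and bacterial surfaces, ranged from 283.1 to 9181 CPM in Nr2f2-KO and from 4.50 to 1240 CPM in WT. Its run means were 1074, 3361, 5608 and 1316 CPM in Nr2f2-KO, 303.9, 511 and 324.1 CPM in Usf1-KO, and 255.5, 523 and 373 CPM in WT. Usf1-KO was level with WT (log2 -0.07), while Nr2f2-KO was higher with all cells (log2 2.85) and without the distant runs (log2 1.47). Cdkn1a, the p53 target p21 that halts the cell cycle, had a count in 78.9% of Nr2f2-KO cells (71.8 to 84.9) and in 10.9% of WT cells (6.77 to 16.3), or in 73.3% of Nr2f2-KO cells and 7.61% of WT cells after thinning. It averaged 4.24, 35.5, 39.3 and 7.84 CPM in the Nr2f2-KO runs, 9.34, 1.11 and 9.44 CPM in the Usf1-KO runs, and 0.517, 0.290 and 1.39 CPM in the WT runs. The log2 difference was 4.06 for Nr2f2-KO over WT and 2.05 for Usf1-KO over WT, the second at a mean level under the filter.

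Ly6e, a surface protein known to hinder entry of viruses, averaged 555 CPM in Nr2f2-KO, 460 CPM in Usf1-KO and 172.5 CPM in WT, and was past 2-fold higher in the cells of both knockout labels (log2 1.68 and 1.41). Cyp17a1, a steroid hydroxylase, averaged 12.6 CPM in Nr2f2-KO, 2.40 CPM in Usf1-KO and 1.26 CPM in WT. Raet1e, a stress ligand for natural killer cells, averaged 15.5 CPM in Nr2f2-KO, 4.40 CPM in Usf1-KO and 2.75 CPM in WT, with 44.7% of its transcript windows shared with other genes. Prob1 (13.3 CPM in Nr2f2-KO, 5.73 CPM in Usf1-KO, 2.99 CPM in WT) and Klhl13 (8.10 CPM in Nr2f2-KO, 3.11 CPM in Usf1-KO, 2.15 CPM in WT) showed the same order of groups. The ninth gene, Gm15920, is annotated as a processed pseudogene, and 78.8% of its windows also occur in Ndufa12. By run Gm15920 averaged 34.51 to 110.3 CPM in Nr2f2-KO and 0.8184 to 0.9589 CPM in WT. In the Usf1-KO runs it averaged 49.48, 1.225 and 56.55 CPM. At P12+40d, Cyp17a1, Prob1 and Klhl13 were also past 2-fold higher in Nr2f2-KO than in that stage's WT (log2 2.02, 1.53 and 1.51). Gm15920 was past 2-fold higher there too by group mean, while Mt2, Cdkn1a, Ly6e, Raet1e and Apcs were not. The P12+40d runs of Gm15920 overlapped, with the highest run in WT and the lowest in Nr2f2-KO. Its run means there were 0.646, 43.17 and 36.24 CPM in Nr2f2-KO and 49.9, 1.485 and 1.153 CPM in WT. For Apcs the P12+40d run means were 290.1, 806.1 and 1221.1 CPM in Nr2f2-KO. In that stage's WT runs they were 1338.5, 245.8 and 1614.7 CPM.

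Of the 3 lower genes, Cyp2a5, the coumarin hydroxylase, averaged 423, 31.5, 25.6 and 457 CPM in the Nr2f2-KO runs, 401, 316.8 and 515 CPM in the Usf1-KO runs, and 1208, 996 and 1501 CPM in the WT runs. It is a pericentral gene, and 28.1% of its windows are shared with Cyp2a4. Acaa1b, a peroxisomal thiolase of fatty acid oxidation, ranged from 1.10 to 446 CPM in Nr2f2-KO and from 162.4 to 1372 CPM in WT. It averaged 225.7, 63.1, 45.96 and 231.7 CPM in the Nr2f2-KO runs, 249.4, 378 and 190 CPM in the Usf1-KO runs, and 538, 542 and 515 CPM in the WT runs. With equal weight to the 3 classes of zonal score its log2 difference was -1.82, beside -2.18 over all cells. Pdilt, a relative of the protein disulphide isomerases, averaged 7.47 CPM in Nr2f2-KO, 15.1 CPM in Usf1-KO and 22.9 CPM in WT.

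**Figure D3:**
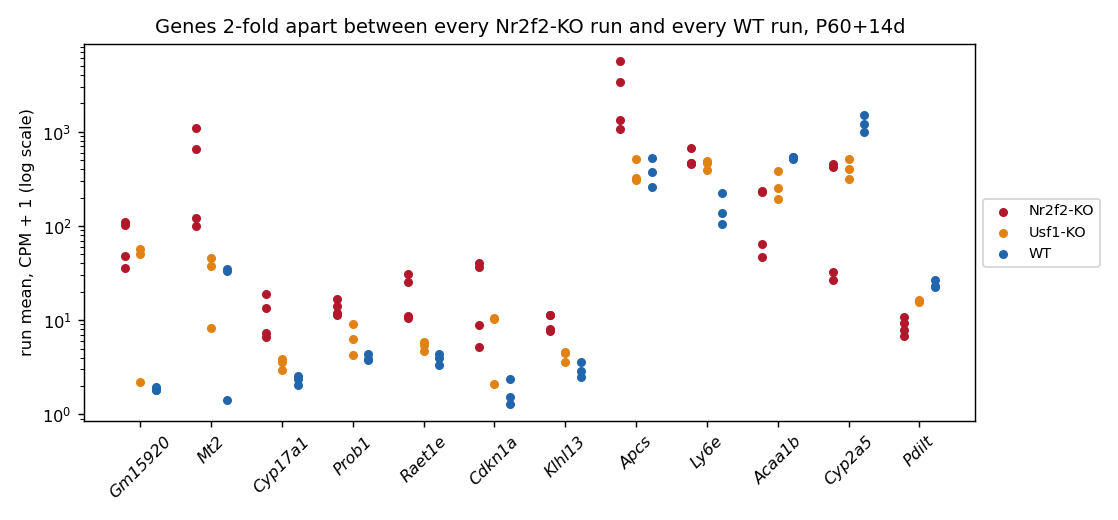
Each point is the mean CPM plus 1 of 1 run (log axis) for the 12 genes in which every Nr2f2-KO run is at least 2-fold from every WT run, with Nr2f2-KO left, Usf1-KO in the middle and WT right. Usf1-KO runs of Ly6e and Cdkn1a lie above or near the top of WT, and those of Apcs lie among WT.

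The cells of the groups differed in a score of zonation. A score was taken per cell as the mean log2(CPM + 1) of 29 pericentral genes minus that of 33 periportal genes, and the 501 cells of the stage were cut into 3 classes of equal size. The most periportal class held 46.6% of Nr2f2-KO cells (38.7 to 54.6), 45.5% of Usf1-KO cells (37.5 to 53.7) and 11.4% of WT cells (7.21 to 16.9). The most pericentral class held 19.9% of Nr2f2-KO cells, 27.6% of Usf1-KO cells and 50% of WT cells. The distant runs were the most shifted, with 57.1% periportal and 12.4% pericentral, beside 26.8% and 33.9% in the other Nr2f2-KO cells. The classes are ranges of a score, with 19 Nr2f2-KO, 15 Usf1-KO and 20 WT cells within 0.25 of a border. Giving equal weight to the 3 classes, with the genes of the score left out, kept 120 of the genes called higher and 95 of those called lower. Among the genes it took short of 2-fold were Nr1i3 (log2 -0.56), Por (-0.82), Slco1b2 (-0.42), Abcg5 (-0.75), Abcg8 (-0.56), Abcc2 (-0.61), Hamp (-0.76), Lifr (-0.71), Sox9 (0.82), Cyp51 (0.70), Sqle (0.73), Idi1 (0.94) and Mvd (0.99). A shift of the picked cells and a lower level of pericentral genes in each cell cannot be told apart by this score.

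**Figure D4:**
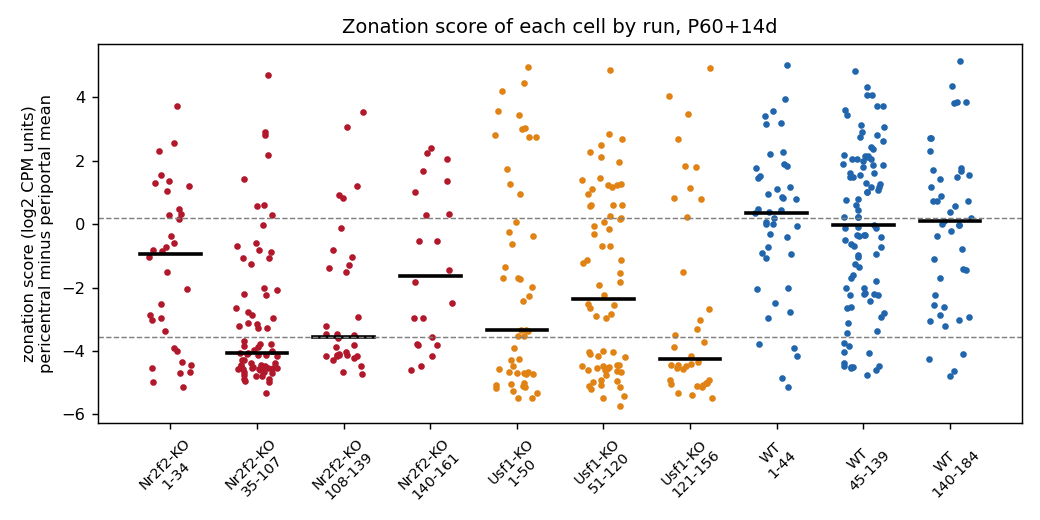
Each point is 1 cell, with its score (pericentral minus periportal mean, in log2 CPM units) on the y axis and its run on the x axis, black bars at the medians and dashed lines at the borders of the 3 classes. The medians are -0.95, -4.06, -3.54 and -1.64 in the Nr2f2-KO runs, -3.33, -2.37 and -4.26 in the Usf1-KO runs, and 0.36, -0.03 and 0.11 in the WT runs.

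Pericentral genes, which make up the score, were lower. Of 34 on the list 29 were tested. In Nr2f2-KO 15 were past 2-fold lower (51.7%, beside 2.43% of all tested genes) and none higher (median log2 -1.02). In Usf1-KO 11 were lower (median -0.63). On the same list 5 genes (Mup17, Glul, Cyp2a5, Oat and Aldh3a2) were past 2-fold lower without the distant runs (median -0.40), beside 1.94% of all tested genes. Cyp2e1, which oxidises ethanol, averaged 2652 CPM in Nr2f2-KO, 4150 CPM in Usf1-KO and 9814 CPM in WT (log2 -1.89). Glul, glutamine synthetase of the cells around the central vein, averaged 56.4 CPM in Nr2f2-KO, 265.3 CPM in Usf1-KO and 213.8 CPM in WT (log2 -1.91). Its run means were 40.7, 70.04, 43.8 and 53.5 CPM in Nr2f2-KO, 393, 150.5 and 310.6 CPM in Usf1-KO, and 209.4, 131.1 and 393 CPM in WT, so the means of all Nr2f2-KO runs lay below the other groups. These means rest on few cells. The run medians were 29.4, 13.96, 31.5 and 27.7 CPM in Nr2f2-KO and 11.3, 30.2 and 20.2 CPM in WT, so they overlapped, and the highest cell had 3502 CPM in Nr2f2-KO and 7686 CPM in WT. Of 33 periportal genes 7 were past 2-fold higher (21.2%, beside 2.04% of all tested genes), with a median log2 of 0.20. Among them Ctsc, a lysosomal protease, averaged 91.2 CPM in Nr2f2-KO and 23.2 CPM in WT, Gldc of the glycine cleavage system 98.7 CPM in Nr2f2-KO and 37.1 CPM in WT, and Hsd17b13 of lipid droplets 449 CPM in Nr2f2-KO and 205.7 CPM in WT. Cdh1, E-cadherin, averaged 29.1 CPM in Nr2f2-KO, 31.2 CPM in Usf1-KO and 9.64 CPM in WT. Hpx, also among the 7, is on the acute phase list as well. Without the distant runs 6 of the 33 periportal genes were past 2-fold higher (median log2 0.415), beside 1.43% of all tested genes. In Usf1-KO over the same WT cells 6 were higher (median log2 0.556), beside 82 of the 8096 genes.

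Within Nr2f2-KO, detoxification and bile acid genes were lower mainly in the distant runs. Of 27 tested drug metabolism genes 12 were past 2-fold lower (44.4%) and 1, Ugt2b38, higher (3.7%), with a median log2 of -0.96. Of all tested genes 2.43% were lower and 2.04% higher. Without the distant runs 2 of the 27 were lower, beside 1.94% of all tested genes. Por, the reductase that feeds electrons to cytochromes P450, averaged 268.9, 32.04, 30.1 and 270 CPM in the Nr2f2-KO runs and 420, 226.7 and 287.8 CPM in the WT runs. Cyp3a11, the main drug-oxidising cytochrome of mouse liver, averaged 855 CPM in Nr2f2-KO, 1174 CPM in Usf1-KO and 2161 CPM in WT (log2 -1.34), and with equal weight to the zonal classes the difference was -0.26. Nr1i3, the xenobiotic receptor CAR, averaged 57.01 CPM in Nr2f2-KO, 49.4 CPM in Usf1-KO and 128.2 CPM in WT. Of 21 bile acid genes 5 were past 2-fold lower (23.8%, beside 2.43% of all tested genes) and none higher. None of them was past 2-fold without the distant runs, and 1 of the 21 was lower in Usf1-KO. Cyp7a1, the rate-limiting enzyme of bile acid synthesis, averaged 47.7 CPM in Nr2f2-KO, 37.6 CPM in Usf1-KO and 216.8 CPM in WT (log2 -2.16). The sterol exporter pair Abcg5 and Abcg8 averaged 41.4 and 38.8 CPM in Nr2f2-KO, against 97.8 and 80.2 CPM in WT.

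Of 24 tested fatty acid oxidation genes 7 were past 2-fold lower (29.2%, beside 2.43% of all tested genes) and none higher (median log2 -0.68). Without the distant runs 5 were lower and 1 higher, beside 1.94% and 1.43% of all tested genes. Several of them differed among the WT runs as well. Cyp4a10, an omega-hydroxylase induced through PPAR-alpha in fasting, had the lowest log2 difference of all named genes. Its median cell had 10.1 CPM and its upper quartile was 19.6 CPM in Nr2f2-KO, against 147.3 and 641 CPM in WT, with means of 18.3 CPM in Nr2f2-KO, 24.6 CPM in Usf1-KO and 348 CPM in WT (log2 -4.17). Its WT run means were 691, 30.04 and 683 CPM, so cells of WT run 2 were close to the knockouts. Cyp4a14 (107.8, 6.20 and 163.8 CPM) and the thioesterase Acot3 (58.5, 1.37 and 37.3 CPM) had the same order of WT runs. The reverse held for Srebf1, the driver of fatty acid synthesis, with 69.9, 414 and 57.2 CPM in the WT runs and 70.1 CPM in Nr2f2-KO, so that its log2 difference of -1.79 became 0.14 without WT run 2. Ehhadh of the peroxisome (97.8 CPM in Nr2f2-KO, 168.1 CPM in Usf1-KO, 357 CPM in WT) was lower in each Nr2f2-KO run than in any WT run. Fabp1, the fatty acid binding protein of hepatocytes, averaged 8243 CPM in Nr2f2-KO, 23796 CPM in Usf1-KO and 21037 CPM in WT. By run it averaged 14494, 3256, 4848 and 20070 CPM in the Nr2f2-KO runs and 17781, 17911 and 30822 CPM in the WT runs, the last Nr2f2-KO run lying inside the range of WT.

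Of 23 cholesterol synthesis genes 5 were past 2-fold higher (Hmgcs1, Mvd, Idi1, Sqle and Cyp51) and none lower, with a median log2 of 0.64. The higher share was 21.7%, beside 2.04% of all tested genes. Hmgcs1, an early enzyme of the pathway, averaged 442 CPM in Nr2f2-KO, 242.2 CPM in Usf1-KO and 136.1 CPM in WT. Its Nr2f2-KO run means were 93.2, 489, 899 and 157.7 CPM, and the WT run means 72, 184.6 and 96.3 CPM. None of the 23 was past 2-fold without the distant runs.

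Clock genes differed in the distant runs. Of 19 tested clock genes 8 were past 2-fold lower (42.1%) and 2 higher (10.5%), with a median log2 of -0.79. Among all tested genes 2.43% were lower and 2.04% higher. None of the 19 was past 2-fold without the distant runs. Arntl (BMAL1), the activator that peaks opposite to the Per genes, averaged 0.459, 13.6, 17.47 and 1.52 CPM in the Nr2f2-KO runs, 0.109, 0.407 and 0.136 CPM in the Usf1-KO runs, and 0.759, 0.639 and 0.431 CPM in the WT runs. Nfil3, which peaks near it, averaged 24.2 CPM in Nr2f2-KO, 13.3 CPM in Usf1-KO and 7.71 CPM in WT. Dbp, an output factor of the opposite phase, averaged 34.7, 0.502, 0.826 and 25.7 CPM in the Nr2f2-KO runs and 30.3, 25.9 and 21.97 CPM in the WT runs. Per3, a repressor of the clock, averaged 33.9, 1.28, 3.497 and 45.6 CPM in the Nr2f2-KO runs and 39.8, 68.5 and 50.6 CPM in the WT runs. Low Dbp and Per3 with high Arntl also occurred in WT cells of the other stage, where the P12+40d WT runs averaged 15.7, 16.7 and 0.796 CPM of Arntl, 0.588, 1.99 and 25.3 CPM of Per3, and 0.120, 0.749 and 9.38 CPM of Dbp. At P60+14d clock genes and Saa2 differed in the same 2 runs, and the part of clock phase in the other differences was not tested.

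The 15 highest and 15 lowest genes that also passed 2-fold with summed counts and with the top 5% of cells left out were mostly set by the distant runs when higher. Besides the genes above, the highest included Moxd1 (33.2 CPM in Nr2f2-KO, 11.4 CPM in Usf1-KO, 0.0701 CPM in WT), Cxcl14, a chemokine (16.5 CPM in Nr2f2-KO, 12.6 CPM in Usf1-KO, 0.360 CPM in WT), and Chrm3, a muscarinic receptor (11.6 CPM in Nr2f2-KO, 1.64 CPM in Usf1-KO, 0.136 CPM in WT). Prtn3, known as a neutrophil protease, averaged 16.3 CPM in Nr2f2-KO and 0.768 CPM in WT. Acnat2, a peroxisomal acyltransferase, averaged 34.8 CPM in Nr2f2-KO, 1.17 CPM in Usf1-KO and 3.14 CPM in WT. Ddit4, an inhibitor of mTORC1 induced by stress and glucocorticoids, averaged 23.1 CPM in Nr2f2-KO, 4.62 CPM in Usf1-KO and 2.05 CPM in WT. In the Nr2f2-KO cells outside the distant runs these 6 genes averaged 0.0382, 0.0253, 0.774, 2.33, 2.23 and 4.34 CPM.

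Of the 15 highest, Saa2, Lcn2, Saa3, Saa1, Moxd1, Cdkn1a, Cxcl14, Chrm3 and Spp1 were also at least 2-fold higher in Usf1-KO over the same WT cells (Cdkn1a and Chrm3 at a mean level under the filter), while Mt2, Orm2, Mt1, Prtn3, Acnat2 and Ddit4 were not. For Saa3 the Usf1-KO mean was set by run 2 (54.2 CPM, median 3.46 CPM, highest cell 2094.8 CPM). The other Usf1-KO runs averaged 4.13 and 7.71 CPM of Saa3, beside 4.38, 8.01 and 6.81 CPM in the WT runs. All of the 15 lowest except Acaa1b, Rps3a2 and Rps3a3 were also at least 2-fold lower in Usf1-KO over the same WT cells. Among the lowest, Oat, an ornithine enzyme of pericentral cells (159.2 CPM in Nr2f2-KO, 342 CPM in Usf1-KO, 806 CPM in WT), Aldh3a2, a fatty aldehyde dehydrogenase (32.4 CPM in Nr2f2-KO, 65.3 CPM in Usf1-KO, 145.4 CPM in WT), Bmf, a promoter of apoptosis (1.56 CPM in Nr2f2-KO, 3.76 CPM in Usf1-KO, 13.04 CPM in WT), and Cyp26a1, which breaks down retinoic acid (5.02 CPM in Nr2f2-KO, 3.97 CPM in Usf1-KO, 28.3 CPM in WT), were past 2-fold lower in the cells of both knockout labels. Cyp26a1 averaged 6.87, 48.6 and 6.504 CPM in the WT runs, and without WT run 2 its difference was -0.35. Cyp2c40, a cytochrome of the Cyp2c family (3.89 CPM in Nr2f2-KO, 6.89 CPM in Usf1-KO, 24.4 CPM in WT) was likewise high in that WT run (40.7 CPM) and short of 2-fold without it (log2 -0.72). Mup9, a major urinary protein with 79.1% of its windows shared with its family, averaged 303.8 CPM in Nr2f2-KO, 132.6 CPM in Usf1-KO and 1579 CPM in WT. The heat shock gene Hspa1b averaged 7.93 CPM in Nr2f2-KO, 20.2 CPM in Usf1-KO and 49.2 CPM in WT, with 64.4, 6.58 and 124.3 CPM in the WT runs. Rps3a2 and Rps3a3, near-copies of a ribosomal protein gene with 90.2% and 65.1% of their windows shared, followed runs as well. Rps3a2 averaged under 1 CPM in all Nr2f2-KO runs, Usf1-KO run 2 and WT run 2, and 25.7 to 35.8 CPM in the other runs of Usf1-KO and WT. Rps3a3 averaged 2.75 to 15.3 CPM over the Nr2f2-KO runs, 9.37 CPM in Usf1-KO run 2 and 3.61 CPM in WT run 2, against 89.8 to 108.1 CPM in the other runs of Usf1-KO and WT.

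**Figure D5:**
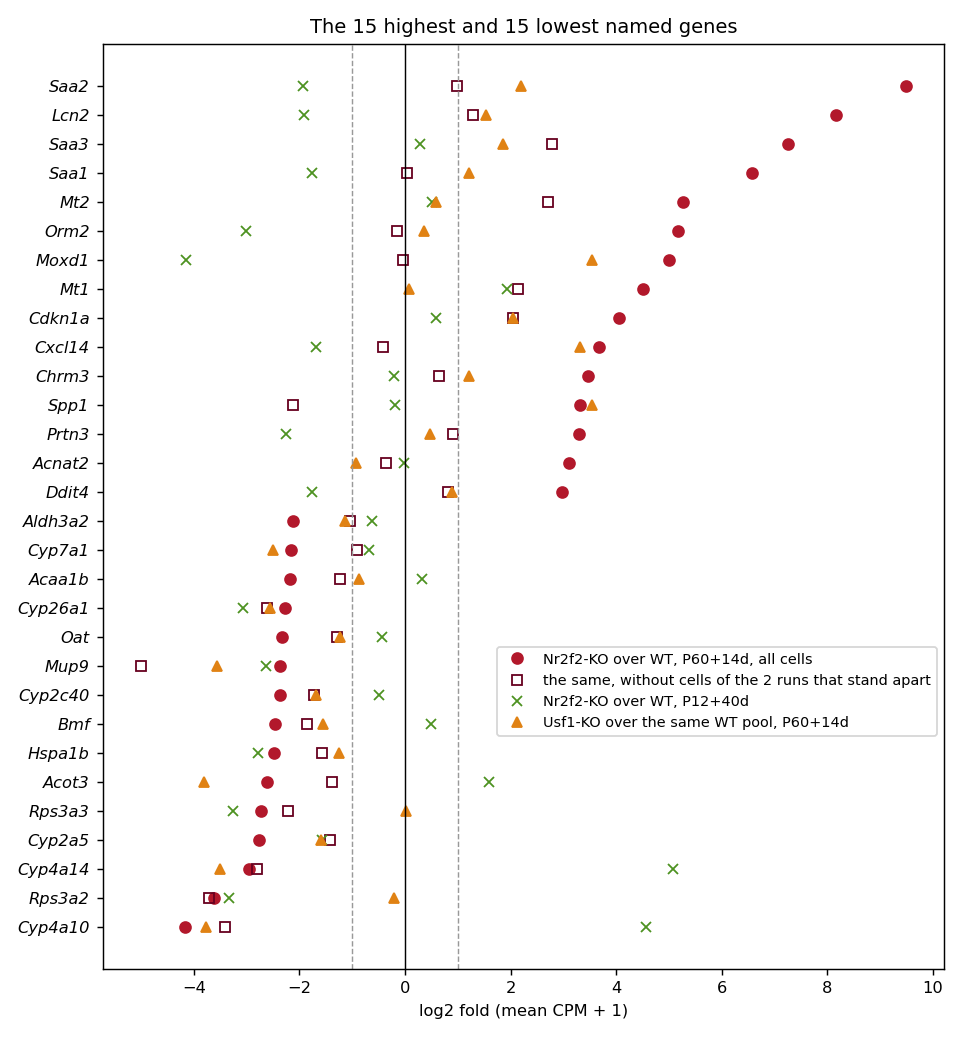
The x axis gives the log2 fold of mean CPM plus 1 for the 15 highest and 15 lowest genes (rows), with dashed lines at 2-fold. Filled circles are Nr2f2-KO over WT at P60+14d with all cells, squares the same without the distant runs, crosses Nr2f2-KO over WT at P12+40d and triangles Usf1-KO over WT at P60+14d. Most squares of the highest genes lie near the centre, with Saa3, Mt2, Mt1, Cdkn1a and Lcn2 still beyond 2-fold higher, Saa3 and Lcn2 through 1 cell each, and Spp1 beyond 2-fold lower (-2.12).

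The stage labelled P12+40d gives a comparison with its own WT cells. There 2.08% of 8127 tested genes were past 2-fold higher in Nr2f2-KO and 1.53% lower. Of the genes higher at P60+14d and tested at P12+40d, 26 were past 2-fold higher (16.9%) and 13 lower (8.44%) at the second stage. Of the lower genes tested there, 30 were past 2-fold lower (16.4%) and 10 higher (5.46%). By group means, genes higher at both stages included Mt1, Cyp17a1, Prob1, Klhl13, Sox9 and Hsd17b13, and genes lower at both included Cyp2a5, Cyp26a1, Hamp2, Lect2, Cyp1a2 and Cyp3a11. At P12+40d the run means of Mt1, Cyp2a5 and Cyp3a11 overlapped between Nr2f2-KO and WT, and those of the others named here did not. WT run 1 averaged 48.79 CPM of Cyp2a5, below every Nr2f2-KO run. It averaged 1027.4 CPM of Mt1, above Nr2f2-KO run 1 (822.4 CPM). For Hamp2 the WT mean was set by run 2 (836.7 CPM), beside 67.73 and 80.6 CPM in the other WT runs. Saa2, higher at P60+14d, was lower at the second stage, with a mean of 1487 CPM in Nr2f2-KO and 5654 CPM in WT at P12+40d (log2 -1.93). Its run means there were 11.7, 910 and 3056 CPM in Nr2f2-KO, against 16105 CPM in run 1 and 4192 CPM in run 3 of WT with run 2 lower than both, and without WT run 1 the difference was -0.69, short of 2-fold.

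The 2 stages together allow 1 test. edgeR's quasi-likelihood test on the 6 pools of Nr2f2-KO, Usf1-KO and WT, with stage as a block and 2 residual degrees of freedom, called 0 of 16183 genes (0%) at an adjusted p of 0.05. At an unadjusted p under 0.05 there were 804 genes, the smallest adjusted p was 0.509, and DESeq2 on the same pools called 93 genes higher and 68 lower of 14932. In edgeR's fit Saa2 had a log2 difference of 8.28 (adjusted p = 0.976) and Nr2f2 of -0.20 (adjusted p = 0.993). The Saa2 value depended on the fit, with 4.017 from only the 4 Nr2f2-KO and WT pools and 2.815 without the stage term. At the single stages it was 9.49 (P60+14d) and -1.93 (P12+40d), so 8.28 is not a difference seen at both. The Usf1-KO pools in the fit averaged 212.1 CPM of Saa2 at P60+14d and 96462 CPM at P12+40d. The test asks for a difference shared by both stages and holds no information on P60+14d alone, and the pools may differ for technical reasons.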

How the data were processed

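The authors deposited whole-number counts per gene symbol (40824 genes) and cell for 1226 Smart-seq3 cells (at P60+14d 161 Nr2f2-KO, 156 Usf1-KO and 184 WT, at P12+40d 165 Nr2f2-KO and 164 WT), with no normalization. Per the submitters' processing notes, TopHat, TopHat2, HISAT2, Bowtie2, Trimmomatic, UMI-tools, SAMtools, HTSeq, featureCounts and the builds GRCm38 and mm10 were used, with no role given. Whether the counts are reads or molecules, how shared reads were assigned and whether strand was used was not stated in the sources, so close relatives (Saa1 and Saa2, Mup, Cyp2a, Cyp4a, Rps3a) are uncertain. ERCC entries were left out.

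Counts were scaled to CPM per cell and averaged over the cells of a group. All deposited cells were kept (at least 254635 counts and 7504 genes each at P60+14d), and no doublet caller was run, since cells were picked singly. A difference is log2 of the means plus 1 CPM. The means weight every cell of a group equally. Genes named are Nr2f2, Saa2, the 15 highest and 15 lowest that passed 2-fold also with summed counts and without the top 5% of cells (symbols such as Gm numbers left out), and called list members. Genes separated in every run were named after their values were seen. The members and lists were chosen with earlier results of these data known, and the runs were defined after the data were seen, by binary segmentation with at least 6 cells a run.

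Shares carry exact Clopper-Pearson and sums exact Poisson 95% intervals. The 2-stage test used edgeR 4.0.16 (R 4.3.3, TMM, filterByExpr, Benjamini-Hochberg), checked on simulated counts, with DESeq2 1.42.0 as an alternative. Some genes are not reported here. Coordinates are from GENCODE M21 (GRCm38), promoters from RefSeq (GRCm38.p6).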

Additional observations from a re-analysis of the deposited data

Results flagged for a closer look

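For 11 genes the difference between Nr2f2-KO and WT had opposite directions at the 2 stages, with 1 pool of cells a group, and the difference between stages was not tested. At P60+14d and at P12+40d the log2 differences were 9.49 and -1.93 for Saa2, 8.17 and -1.91 for Lcn2, and 6.57 and -1.76 for Saa1. They were 5.17 and -3.02 for Orm2, 4.996 and -4.14 for Moxd1, 3.68 and -1.69 for Cxcl14, 3.29 and -2.25 for Prtn3, and 2.98 and -1.76 for Ddit4. The 3 genes of fatty acid metabolism went the other way, with -4.17 and 4.57 for Cyp4a10, -2.97 and 5.07 for Cyp4a14, and -2.61 and 1.59 for Acot3. At P12+40d Cyp4a10 averaged 646 CPM in Nr2f2-KO and 26.3 CPM in WT, and at P60+14d 18.3 CPM in Nr2f2-KO and 348 CPM in WT. At P12+40d some of these differences rested on 1 WT run. Without WT run 1 they were -0.69 for Saa2, -0.68 for Lcn2, -0.97 for Saa1 and -0.22 for Ddit4, and without WT run 3 they were 0.10 for Moxd1 and -0.70 for Cxcl14. For Orm2, Prtn3, Cyp4a10, Cyp4a14 and Acot3 the difference stayed past 2-fold in its direction whichever run of that stage was left out.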

How the results depend on the processing

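With all cells, 2.04% of 8096 genes were past 2-fold higher and 2.43% lower. Both counts stayed within 1.5 times under summed counts, other pseudocounts, TMM factors, thinning and without the top 5% of cells. Without the filter on low values the shares were 1.27% and 1.42% of 21807 genes, which is over 1.5 times as many genes, and with equal weight to the zonal classes 1.27% were lower, with 95 of the genes called lower kept. Leaving out 1 run at a time gave 1.67 to 3.14% higher (3.14% without WT run 2) and 1.38 to 4.37% lower (1.38% without Nr2f2-KO run 2, 4.37% without run 1, 3.66% without run 4). Leaving out the distant runs with equal weight to the zonal classes gave 1.33% higher. The Saa2 difference was 7.37 with Saa1 added and 0.99 without the distant runs. Alternatives by run or single cell were chosen after seeing the data.

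Without the distant runs the sign turned for Orm2 (-0.153), Moxd1 (-0.0437), Cxcl14 (-0.408), Spp1 (-2.12), Acnat2 (-0.357), E2f8 (-0.184), Elovl3 (-0.905), Hmgcs1 (-0.198), Mvd (-0.492), Nfil3 (-0.15), Orm1 (-0.215), Ppard (-0.119), Sdf2l1 (-0.209), Serpina3n (-0.0623), Socs3 (-0.239), Sox9 (-1.17), Steap4 (-0.396), Abcg5 (0.0254), Abcg8 (0.2), Cyp3a25 (0.00675), Dbp (0.252), Nr1d1 (0.00726), Nr1d2 (0.151), Serpina6 (0.183) and Usp2 (0.0295). Leaving out also the highest of the other cells turned Saa3 (-0.972). Moxd1 at P12+40d lay between -4.72 and 0.1 when 1 run was left out. Srebf1 lay between -2.1 and 0.142 when 1 run was left out, the second without WT run 2. The cause was not tested.

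Over 2 stages, DESeq2 called 93 higher and 68 lower. Leaving out 1 pool at a time, edgeR called 0 to 66 higher and 0 to 14 lower. The 66 and 14 came without Nr2f2-KO at P12+40d, when Saa2 was 10.1 (adjusted p = 0.0123), and 15 and 11 without Nr2f2-KO at P60+14d, when Saa2 was -2.26 (adjusted p = 0.605) and Nr2f2 0.377 (-0.933 without Nr2f2-KO at P12+40d). In these fits the lone pool is assumed to vary like the others. No paired analysis was possible because the numbers in the labels name cells, not animals or pairs.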

Other observations

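Cells with Saa2 at or above 15651 CPM, the lowest value in Nr2f2-KO runs 2 and 3, also occurred at P12+40d. They were 1.82% of Nr2f2-KO cells, 98.4% of Usf1-KO cells (62 of 63), 35.3% of Xbp1-KO cells, 0 Tef-KO cells and 14% of WT cells. Saa2 averaged 96462 CPM in that Usf1-KO pool and 5654 CPM in its WT, while Usf1-KO at P60+14d averaged 212.1 CPM.

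Among p53 targets and DNA damage genes, 3 of 14 tested were past 2-fold higher with all Nr2f2-KO cells (21.4%, beside 2.04% of all tested genes). Without the distant runs the same 3 (Cdkn1a, Gdf15 and Btg2) were higher and 1 (Bbc3) lower, beside 1.43% and 1.94% of all tested genes. Gdf15, a stress hormone, averaged 14.3, 8.32, 6.44 and 17.7 CPM in the Nr2f2-KO runs, 7.65, 2.50 and 4.86 CPM in the Usf1-KO runs, and 1.30, 2.93 and 1.66 CPM in the WT runs. Btg2, an inhibitor of proliferation, averaged 21.3 to 22.1 CPM over the Nr2f2-KO runs, 12.7 to 57.5 CPM over the Usf1-KO runs and 5.36 to 11.8 CPM over the WT runs. Mdm2, another p53 target, averaged 14.4 CPM in Nr2f2-KO and 20.5 CPM in WT. Asns, asparagine synthetase and a target of ATF4, averaged 9.66 CPM in Nr2f2-KO, 5.29 CPM in Usf1-KO and 0.919 CPM in WT (log2 2.47, and 1.36 without the distant runs).

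The 56 Nr2f2-KO cells outside the distant runs differed from WT in the following genes. Igfbp1, which binds insulin-like growth factors, averaged 71.96 CPM in run 1 and 134.1 CPM in run 4, beside 11.6, 56.97 and 17.7 CPM in the WT runs. Lpin1, a regulator of lipid synthesis, averaged 384 and 343 CPM in the same cells, 21.4 and 19.7 CPM in the distant runs, and 180, 78.95 and 164.3 CPM in the WT runs. Of 23 male-biased genes, 7 were past 2-fold lower in these cells and none higher, most of them Mup genes that share sequence. Among all tested genes 1.94% were lower in these cells. Mup17 averaged 918 and 529 CPM in these cells, 10644 and 9413 CPM in the distant runs, and 2763 to 5257 CPM over the WT runs.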
